A study of Mus musculus with 30 samples.

Results

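The mitochondrial genome genes are the 37 genes whose symbols begin with mt-, which are 13 protein-coding genes, 2 ribosomal RNA (rRNA) genes and 22 transfer RNA (tRNA) genes. They were taken by symbol from 2 gene tables, one of 52630 genes and one of 55487 genes, and all 37 were listed in both and lay on chrM. The study measured gene expression by RNA-seq in E14tg2a cells, an established line of mouse embryonic stem cells (mESCs), to follow what happens when the carbon source of the medium is changed. In the time course, 3 libraries came from cells in Serum/LIF and 3 each from cells moved for 3, 9 or 24 h to EMM, which is Serum/LIF medium with galactose in place of glucose and pyruvate. In the passage experiment, cells had been kept for 10 passages (P10) or 20 passages (P20) in Serum/LIF, EMM or 2i/LIF, a medium with inhibitors of MEK and GSK3, with 3 libraries in each of the 6 groups. All groups received LIF, the cytokine that keeps mESCs undifferentiated, and all came from 1 cell line. The Serum/LIF libraries of the time course are labelled 0 h, while the treatment protocol gives 24 h in Serum/LIF. The study's methods describe 3 biological replicates from independent experiments, while the labels do not say how the libraries of a group were grown, and p-values measure the spread between libraries.

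The mitochondrial genome is a small circular DNA that is present in many copies per cell. Both of its strands are transcribed into long RNAs, from which tRNAs are cut out to release the mRNAs and rRNAs between them, and most of the mRNAs then receive a poly(A) tail. Its protein genes encode core subunits of respiratory complexes I, III and IV and of ATP synthase (complex V), all other subunits being encoded in the nucleus, and its rRNAs and tRNAs serve the ribosomes that translate these mRNAs inside the organelle. Cells given galactose in place of glucose gain little ATP from glycolysis and rely on the respiratory chain.

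The complex I genes were mt-Nd1 (ENSMUSG00000064341, chrM:2751-3707), mt-Nd2 (ENSMUSG00000064345, chrM:3914-4951), mt-Nd3 (ENSMUSG00000064360, chrM:9459-9806), mt-Nd4l (ENSMUSG00000065947, chrM:9877-10173), mt-Nd4 (ENSMUSG00000064363, chrM:10167-11544), mt-Nd5 (ENSMUSG00000064367, chrM:11742-13565) and mt-Nd6 (ENSMUSG00000064368, chrM:13552-14070). Cytochrome b of complex III is encoded by mt-Cytb (ENSMUSG00000064370, chrM:14145-15288). The catalytic core of complex IV, cytochrome c oxidase, is encoded by mt-Co1 (ENSMUSG00000064351, chrM:5328-6872), mt-Co2 (ENSMUSG00000064354, chrM:7013-7696) and mt-Co3 (ENSMUSG00000064358, chrM:8607-9390). The complex V genes were mt-Atp8 (ENSMUSG00000064356, chrM:7766-7969) and mt-Atp6 (ENSMUSG00000064357, chrM:7927-8607). The small and large ribosomal RNAs are made from mt-Rnr1 (ENSMUSG00000064337, chrM:70-1024) and mt-Rnr2 (ENSMUSG00000064339, chrM:1094-2675). Coordinates are those of mm10. Of the protein genes, 12 were annotated on the plus strand and mt-Nd6 alone on the minus strand. Their annotated lengths ran from 204 to 1824 bases and their GC content from 31.9 to 41.1%, and the rRNA genes had 35.4 and 35.8% GC. The genes have no introns and lie nearly end to end, and 3 pairs of protein genes overlap by more than 1 base. The overlap of mt-Atp8 and mt-Atp6 was the longest, at 43 bases. The last 63 bases of mt-Atp8 are given with this overlap in capitals, because a read inside it cannot be assigned to either gene alone.
mt-Atp8 3′ end, chrM:7907-7969, plus strand: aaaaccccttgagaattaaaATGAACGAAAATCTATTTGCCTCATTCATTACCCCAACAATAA

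Some of these genes also share reads with copies of mitochondrial DNA in the nuclear genome. A block of 7 annotated pseudogenes at chr1:24611535-24616197 copies 7 neighbouring mitochondrial protein genes. Over their aligned lengths, the copies of mt-Nd4 (Gm28439), mt-Nd4l (Gm10222), mt-Co3 (Gm28437), mt-Atp6 (Gm10925) and mt-Co2 (Gm28661) were identical to their sources, at 876, 294, 783, 678 and 681 bases. The copy of mt-Co1 (Gm29216) matched at 486 of 492 bases and the copy of mt-Nd3 (Gm28438) at 344 of 345. Every 60-base window of mt-Co2 occurred again in an annotated nuclear transcript, as did 99.9% of the windows of mt-Co3, 99.5% of mt-Atp6, 98.7% of mt-Nd4l and 97.9% of mt-Nd3. The share was 61.9% for mt-Nd4, 46.5% for mt-Co1, 7.2% for mt-Nd2, 4.4% for mt-Nd5 and 0.4% for mt-Rnr2, and it was 0 for mt-Nd1, mt-Nd6, mt-Cytb, mt-Atp8 and mt-Rnr1. The middle 60 bases of mt-Co3, which stand letter for letter in Gm28437, and of mt-Nd1, which stand in no annotated nuclear transcript, show the 2 kinds of gene. The first 30 bases of mt-Nd3 and Gm28438 are given with the 1 base that differs in capitals, a T3C substitution counted from the first base of the gene. The difference lies in the third base of the start codon. Both sequences are those of the reference, and the base carried by the mitochondrial genome of these cells was not examined.
mt-Co3 window, chrM:8969-9028, plus strand: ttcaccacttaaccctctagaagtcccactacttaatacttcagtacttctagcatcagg
mt-Nd1 window, chrM:3199-3258, plus strand: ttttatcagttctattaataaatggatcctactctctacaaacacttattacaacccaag
mt-Nd3 5′ end, chrM:9459-9488, plus strand: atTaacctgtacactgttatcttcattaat
Gm28438 5′ end, chr1:24613090-24613119, minus strand: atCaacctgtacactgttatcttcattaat

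The 2 tables differed in these genes. In the time course, mt-Co2, mt-Atp8, mt-Atp6, mt-Co3, mt-Nd3 and mt-Nd4l held 0 or 1 count in every library, although the libraries held 24074132 to 35301962 counts each. These genes are therefore only listed at or near 0 there, and no level can be read from them. For 5 of the 6, nearly every 60-base window is shared with an annotated nuclear transcript, while mt-Atp8 shares none with such a transcript but overlaps mt-Atp6. Only annotated transcripts were searched. mt-Atp8 lies between mt-Co2 and mt-Atp6, and the bases between their copies, after chr1:24614651 and before chr1:24614885, were not. Whether mt-Atp8 has a copy there was not tested. In the passage experiment, where the deposited counts are estimates that divide shared reads between copies, all 13 protein genes had counts. The chromosome 1 copies there took a median of 76.4% of the reads given to mt-Nd3 and its copy together, 55.6% for mt-Co3, 43.1% for mt-Co2, 39.0% for mt-Nd4l, 8.4% for mt-Atp6, 4.3% for mt-Nd4 and 0 for mt-Co1. Between libraries the copy's part ran from 0.2 to 62.5% for mt-Nd4 and from 1.4 to 75.6% for mt-Atp6, so the levels of the genes with identical copies are uncertain. The genes that share no window with an annotated transcript carry no such division.

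**Figure D1:**
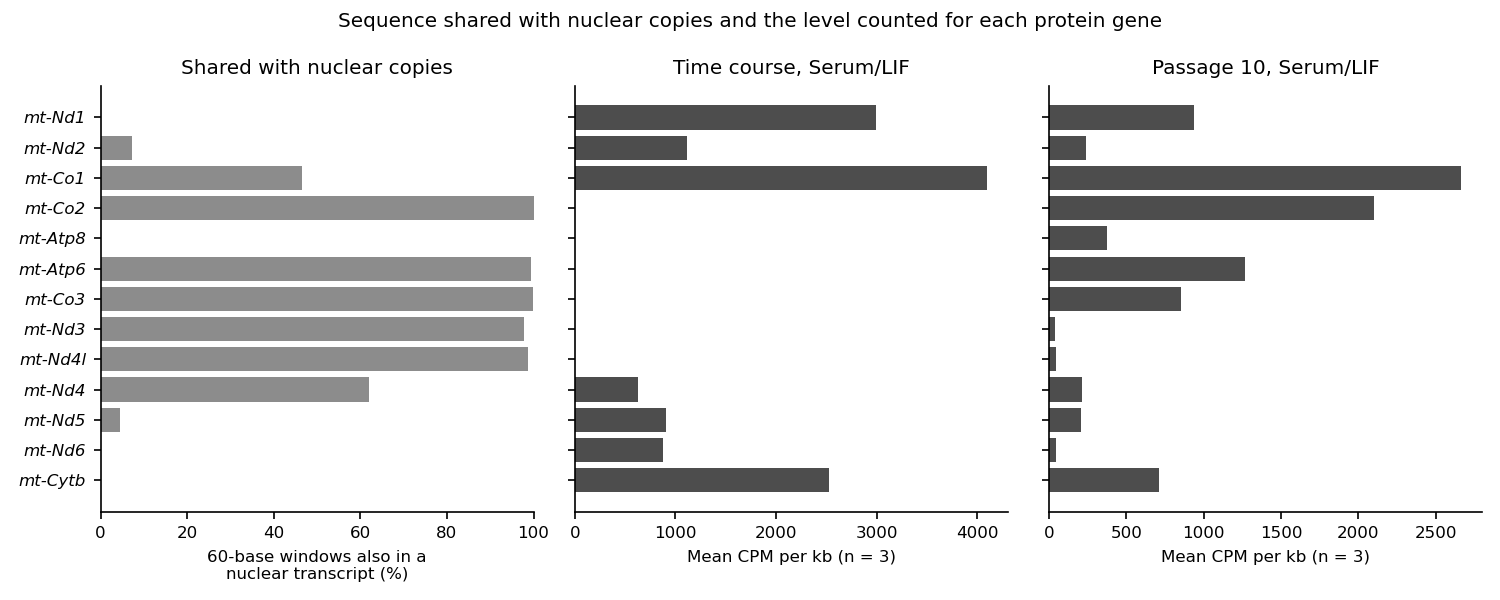
Bars show, for each of the 13 protein genes, the percent of its 60-base windows that also occur in an annotated nuclear transcript (left) and its mean level in CPM (counts scaled to library size) per kb of gene in the Serum/LIF libraries of the time course (middle) and of P10 (right), n = 3. The 5 genes at 97.9 to 100% sharing and mt-Atp8 are empty in the time course and filled at P10.

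Levels are given in CPM, a gene's count per 1000000 counts of its library after edgeR's scaling, and tests were made on the counts with edgeR's quasi-likelihood test. A gene was called higher or lower at an adjusted p under 0.01, the adjustment running over all 16049 genes tested in the time course and 16054 in the passage experiment. Of the 37 mitochondrial genes, 12 passed the filter on low counts in the time course (7 protein genes, both rRNAs and 3 tRNAs) and 15 in the passage experiment (13 protein genes and both rRNAs). The passage libraries were smaller, at 6944904 to 27912928 counts. In bulk RNA, fewer cells of a type and less RNA per cell cannot be told apart, nor can more copies of the genome and more RNA from each. Markers of pluripotent mESCs summed to 4101 to 7395 CPM over all 30 libraries with none of the 7 at 0, and feeder fibroblast markers summed to 42.1 to 69.0 CPM in the time course, 141 to 454 in Serum/LIF, 9.72 to 23.3 in EMM and 2.89 to 5.82 in 2i/LIF of the passage experiment. The study's methods describe culture on gelatin-coated flasks and mention no feeder cells, so which cells expressed the feeder fibroblast markers is not known. Markers of primitive endoderm, trophectoderm, and mesoderm and neural cells summed to at most 19.0, 34.0 and 59.2 CPM in any library, with Elf5 at 0 in 4 groups and Dcn at 0 in both 2i/LIF groups.

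Within 3 h of the move to EMM, mitochondrial mRNAs were higher than in the Serum/LIF libraries. No Serum/LIF libraries were matched to 3 h or 9 h, so galactose and time since the medium change cannot be told apart there. The 13 protein genes together took 1.61, 1.82 and 1.52% of all counts in the 3 Serum/LIF libraries, 2.10, 2.05 and 2.00% at 3 h, 2.11, 1.93 and 1.85% at 9 h and 2.16, 2.02 and 1.92% at 24 h. Every EMM library thus lay above every Serum/LIF library. The protein genes at or near 0 add almost nothing here, so this share is in effect that of the 7 genes tested. It is not the same measure as the share in the passage experiment. The means were 1.65 ± 0.153% (SD, n = 3) in Serum/LIF, 2.05 ± 0.0504% at 3 h, 1.96 ± 0.133% at 9 h and 2.03 ± 0.116% at 24 h, each EMM time having a 2-sided exact permutation p of 0.1 against Serum/LIF, the smallest that 3 libraries against 3 can give.

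Of the 7 protein genes tested, 6 were called higher at 3 h and none lower, against 16.3% of all genes called higher and 18.2% lower. Their median log2 fold change was 0.38 (range 0.31 to 0.41), where the median over all genes was -0.01. At 9 h, 3 of 7 were called higher, with a median of 0.24, against 18.5% higher and 19.7% lower among all genes. At 24 h, 4 of 7 were called higher, with a median of 0.34, against 21.8% higher and 22.2% lower. The 9 h median was 0.15 without Serum/LIF replicate 3. The 9 h count was 5 without Serum/LIF replicate 2, 2 to 4 without any 1 of the other libraries of the 2 groups, and 1 with offsets for GC content, chosen after seeing the data. All 7 had positive fold changes at each time, and none reached the 2-fold change that the study also required. The 3 comparisons share the Serum/LIF libraries, and the passage comparisons likewise share groups. Beside these results, markers of primitive endoderm summed to 7.69 to 9.84 CPM in Serum/LIF, 11.56 to 11.98 at 3 h, 13.3 to 15.5 at 9 h and 18.2 to 19.0 at 24 h, with 1, 3 and 4 of 5 called higher. Markers of trophectoderm summed to 13.5 to 14.1, 15.5 to 16.5, 14.8 to 18.2 and 19.6 to 20.5 CPM, with 1, 2 and 2 of 4 called higher and 1 lower at 24 h. Markers of pluripotency summed to 5183 to 5233 CPM in Serum/LIF and 4956 to 4979 at 9 h, with 1 of 7 called higher at each time and 3, 3 and 2 lower. Of the feeder fibroblast markers, 3 of 5 were lower at 24 h (60.9 to 63.8 CPM in Serum/LIF and 42.1 to 50.0 at 24 h) and 1 was higher and 1 lower at 9 h. Of those of mesoderm and neural cells, 1, 2 and 2 of 5 were higher and 2, 1 and 2 lower. The part of all these markers in the results was not tested.

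The gene with the most counts was mt-Co1, the subunit that reduces oxygen. It stood at 5907, 7011 and 6080.2 CPM in Serum/LIF, 8342, 8259 and 8086 at 3 h, 8663, 7985 and 7693 at 9 h and 8569, 8078 and 7644 at 24 h. No EMM library fell into the Serum/LIF range, and the differences were near constant over time, with log2 fold changes of 0.38 ± 0.06 (adjusted p = 0.00011) at 3 h, 0.36 ± 0.06 (adjusted p = 0.000155) at 9 h and 0.35 ± 0.06 (adjusted p = 0.000136) at 24 h (± SE; edgeR, as for all adjusted p-values that follow). mt-Cytb, the gene of cytochrome b, stood at 2869.5, 3158 and 2629 CPM in Serum/LIF, 3973, 3801 and 3726 at 3 h, 3721, 3459 and 3297 at 9 h and 3830.5, 3687 and 3465 at 24 h. No EMM library fell into its Serum/LIF range, and its log2 fold changes were 0.41 ± 0.06 (adjusted p = 5.59e-05) at 3 h, 0.28 ± 0.06 (adjusted p = 0.00142) at 9 h and 0.34 ± 0.06 (adjusted p = 0.000193) at 24 h. The 9 h call of mt-Cytb was lost with offsets for GC content (0.22, adjusted p = 0.019).

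Among the complex I genes, mt-Nd1, mt-Nd2 and mt-Nd4 were called higher at 3 h. The gene of the membrane subunit ND1, mt-Nd1, stood at 2875, 3138 and 2593 CPM in Serum/LIF, 3785, 3662 and 3547 at 3 h, 3455, 3245 and 3032 at 9 h and 3322, 3213 and 2981 at 24 h. It was above all Serum/LIF libraries at 3 h (log2 0.35 ± 0.06, adjusted p = 0.000307), while its 9 h and 24 h libraries reached into the Serum/LIF range and did not pass (log2 0.18 ± 0.06, adjusted p = 0.029 and 0.14 ± 0.06, adjusted p = 0.0637). The same held for mt-Nd2, at 1168, 1276 and 1014 CPM in Serum/LIF and 1553, 1504 and 1479.7 at 3 h (log2 0.39 ± 0.07, adjusted p = 0.000518), with log2 0.17 ± 0.07 (adjusted p = 0.0724) at 9 h and 0.18 ± 0.07 (adjusted p = 0.0482) at 24 h. For mt-Nd4 the values were 919.6, 952 and 711 CPM in Serum/LIF and 1186, 1131 and 1122 at 3 h (log2 0.41 ± 0.11, adjusted p = 0.00485), with log2 0.26 ± 0.11 (adjusted p = 0.0568) at 9 h and 0.26 ± 0.11 (adjusted p = 0.0462) at 24 h. These 3 genes did not pass at the later times in this fit. None was called lower at 9 h than at 3 h, the smallest adjusted p of the 3 being 0.027 for mt-Nd2. With the replicate number of the titles or of the descriptions as a block in the fit, all 3 were called higher at 9 h and 24 h. mt-Nd1 and mt-Nd2 were then called lower at 9 h than at 3 h (edgeR, title number, log2 -0.18, adjusted p = 0.00385 and -0.23, adjusted p = 0.00194). The call of mt-Nd4 at 3 h was lost without Serum/LIF replicate 3 or any 1 of the 3 h libraries.

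The last 2 complex I genes had their highest levels at 24 h. mt-Nd5 stood at 1649.7, 1784 and 1505 CPM in Serum/LIF, 2182, 2124 and 2095 at 3 h, 2124, 1949 and 1776 at 9 h and 2435, 2238 and 2156 at 24 h. It rose at each time, by log2 0.37 ± 0.07 (adjusted p = 0.000292) at 3 h, 0.24 ± 0.07 (adjusted p = 0.00646) at 9 h and 0.47 ± 0.07 (adjusted p = 2.64e-05) at 24 h, the 9 h libraries overlapping Serum/LIF at 1 library. The 9 h call was lost without Serum/LIF replicate 1 or 3 or 9 h replicate 1 or 2. The minus-strand gene mt-Nd6 stood at 503, 491 and 369 CPM in Serum/LIF, 581, 549 and 557 at 3 h, 559, 518 and 444 at 9 h and 653, 614 and 571 at 24 h. It passed at 24 h (log2 0.43 ± 0.10, adjusted p = 0.0017), with log2 0.31 ± 0.10 (adjusted p = 0.0185) at 3 h and 0.16 ± 0.10 (adjusted p = 0.199) at 9 h, which did not pass. With either replicate number as a block mt-Nd6 was also called at 3 h, and with the description number at 9 h.

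**Figure D2:**
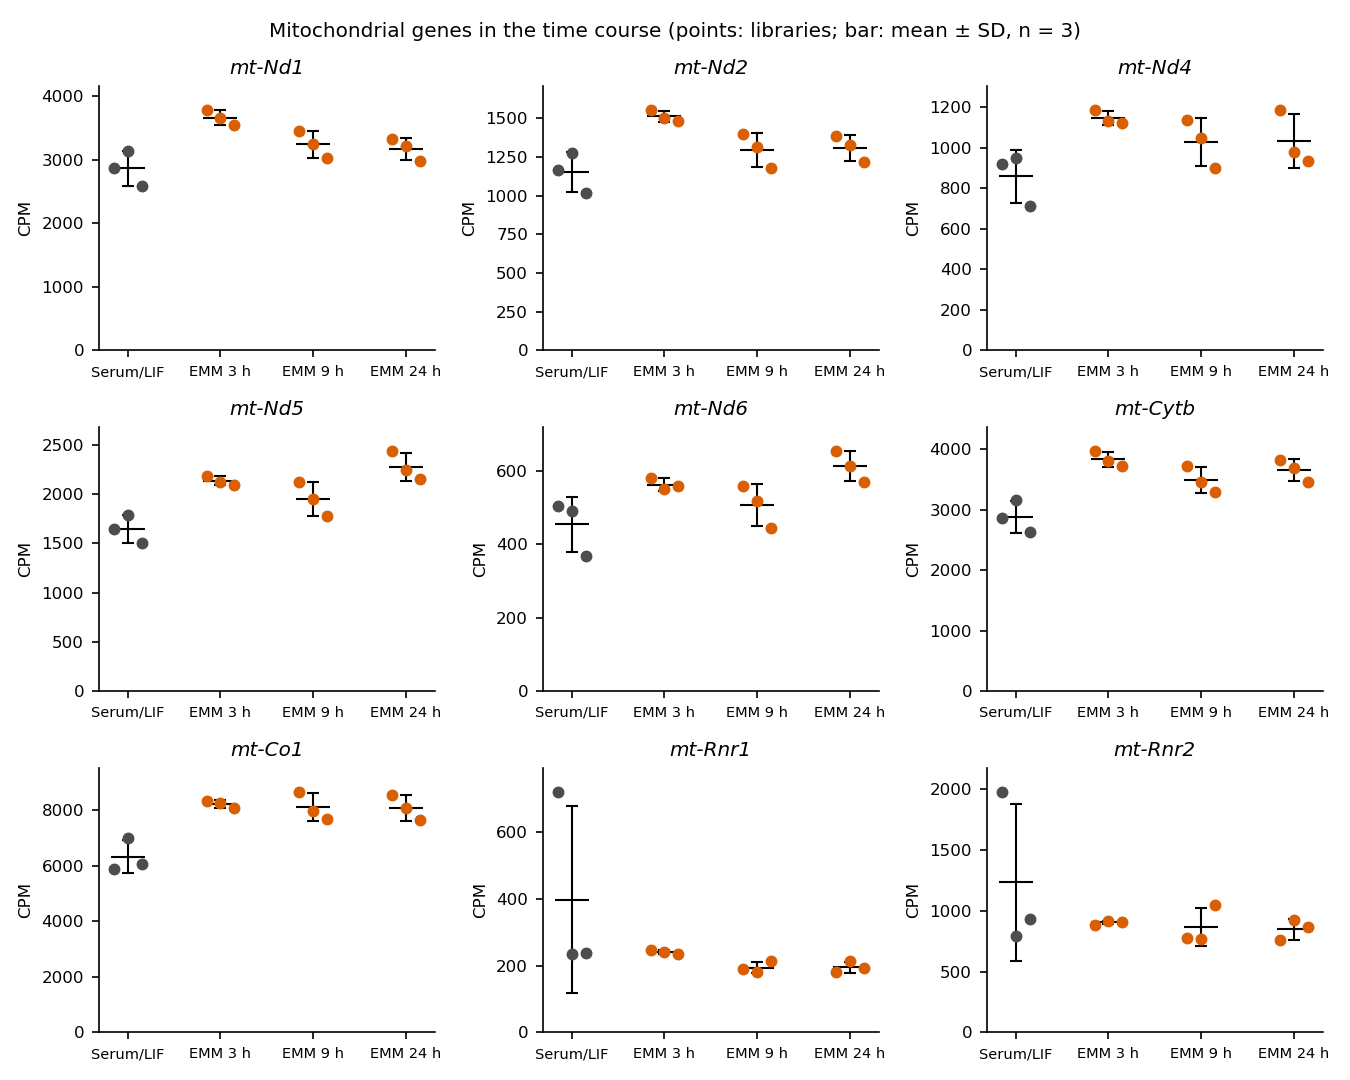
Points are the CPM of 7 mitochondrial protein genes and both rRNA genes in each time-course library, 3 per group, with the mean and SD as bars, all axes starting at 0. The 3 h libraries lie above all Serum/LIF libraries for each of the 7 protein genes, and Serum/LIF replicate 1 stands apart in mt-Rnr1 and mt-Rnr2 only.

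Between EMM times, no protein gene was called in this fit. From 3 to 9 h, 0 of 7 passed (3 at an unadjusted p under 0.05, and 1 called lower by the Wald test of DESeq2), with a median log2 difference of -0.15 and none positive (-0.07 without 9 h replicate 3), against 13.7% of all genes higher and 12.9% lower. From 9 to 24 h, 0 of 7 passed (2 at an unadjusted p under 0.05, and 1 called higher by DESeq2), with a median of 0.01 (-0.05 to 0.08 without 1 library of either group), against 7.0% higher and 6.02% lower. With either replicate number as a block, mt-Nd1 and mt-Nd2 were called lower from 3 to 9 h. mt-Nd5 and mt-Nd6 were then called higher from 9 to 24 h.

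Neither rRNA was called higher in EMM in the time course. The study's methods describe a depletion of rRNA that the labels do not mention, and rRNA values are those left after any such step. mt-Rnr1, the small-subunit rRNA, stood at 719.7, 236 and 237 CPM in Serum/LIF, 247, 242 and 235 at 3 h, 189, 181 and 213 at 9 h and 182, 214 and 192 at 24 h. Serum/LIF replicate 1 was thus about 3 times its fellow libraries. It stood further apart, at 14.1 CPM against 0.802 and 1.33 in Rn7sk, a nuclear RNA without a poly(A) tail, and was at 85.0 CPM against 21.6 and 29.0 in the sum of the histone mRNAs that lack one. mt-Rnr1 was called lower at 9 h (log2 -1.03 ± 0.30, adjusted p = 0.0099) and at 24 h (log2 -1.02 ± 0.30, adjusted p = 0.00939). Without Serum/LIF replicate 1 these log2 fold changes were -0.27 (adjusted p = 0.00585) and -0.26 (adjusted p = 0.00653), smaller but still called. Both calls were lost on leaving out any 1 library of the EMM group compared, and with DESeq2. mt-Rnr2, the large-subunit rRNA, stood at 1977, 793 and 932 CPM in Serum/LIF, 887, 917 and 908 at 3 h, 780.3, 768 and 1048 at 9 h and 756, 928 and 864 at 24 h. It passed at no time, with log2 fold changes of -0.45, -0.51 and -0.54. Without Serum/LIF replicate 1, these were 0.07, 0.02 and -0.01 (adjusted p = 0.668, 0.921 and 0.946), and mt-Rnr1 was at 0.03 at 3 h (adjusted p = 0.742). Of 3 named RNAs without a poly(A) tail that passed the filter, 2, 1 and 0 were called lower at 3, 9 and 24 h, and of 19 histone genes 3, 2 and 2. Their part in the mt-Rnr1 result was not tested.

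Few tRNA counts were present. In the time course, 4 to 6 of the 22 tRNA genes had a count in a library, with 256 to 495 tRNA counts in all, and in the passage experiment no library held more than 3. The 3 tRNA genes tested, mt-Tc, mt-Tn and mt-Tp for cysteine, asparagine and proline, all lie on the minus strand, as do 8 of the 22. Their sequences are given because they are the tRNA genes with enough counts to test. The labels do not state the strand setting of the time course, so counts over them and RNA of the opposite strand, which carries most of the mRNAs, cannot be told apart, and the same holds for mt-Nd6.
mt-Tc, chrM:5192-5257, minus strand: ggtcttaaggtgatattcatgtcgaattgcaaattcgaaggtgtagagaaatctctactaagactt
mt-Tn, chrM:5089-5159, minus strand: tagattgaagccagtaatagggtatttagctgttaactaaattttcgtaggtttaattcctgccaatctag
mt-Tp, chrM:15356-15422, minus strand: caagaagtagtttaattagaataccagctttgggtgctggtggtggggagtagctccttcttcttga

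The counts over mt-Tc were highest at 24 h. They stood at 4.63, 4.74 and 5.15 CPM in Serum/LIF, 5.68, 6.26 and 5.23 at 3 h, 6.27, 6.03 and 7.37 at 9 h and 7.75, 11.6 and 9.77 at 24 h. The rise passed at 24 h (log2 1.00 ± 0.13, adjusted p = 1.53e-05) and from 9 to 24 h (log2 0.57 ± 0.13, adjusted p = 0.00483), but not at 3 h or 9 h (log2 0.24 ± 0.14, adjusted p = 0.182 and 0.43 ± 0.14, adjusted p = 0.0173). The call from 9 to 24 h was lost without 9 h replicate 1 or 2 or 24 h replicate 2 or 3. mt-Tn, its neighbour, stood at 0.328, 0.267 and 0.265 CPM in Serum/LIF and 0.589, 0.744 and 1.18 at 24 h, which is 7 or 8 counts against 18 to 34, and rose by log2 1.54 ± 0.33 (adjusted p = 0.000974) at 24 h. mt-Tp stood between 4.36 and 5.35 CPM in Serum/LIF and between 4.49 and 4.91 at 24 h, and it passed in no comparison.

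The mean share of mitochondrial mRNA was highest in 2i/LIF at P10, at 2.61 ± 1.09% (SD, n = 3), and the means of the 3 media lay closer at P20. At P10 the 13 protein genes took 0.911, 0.937 and 1.15% of counts in Serum/LIF, 1.75, 1.14 and 0.728% in EMM and 1.35, 3.22 and 3.26% in 2i/LIF. At P20 they took 2.15, 2.12 and 2.07% in Serum/LIF, 2.19, 2.23 and 2.46% in EMM and 0.887, 2.17 and 2.60% in 2i/LIF. The P10 EMM libraries and both sets of 2i/LIF libraries spread widely, while the Serum/LIF libraries and the P20 EMM libraries lay close together. At P10, 2i/LIF lay above Serum/LIF without overlap (exact permutation p = 0.1, the smallest possible), while EMM overlapped 2i/LIF (exact permutation p = 0.2) and Serum/LIF (exact permutation p = 0.7).

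Replicate 3 of P10 EMM and replicate 1 of both 2i/LIF groups had the lowest share in their group and were also the 3 smallest libraries, at 7329835, 10030841 and 6944904 counts. They held 20.3, 8.75 and 23.9 CPM of Rn7sk, where the other passage libraries held 3.84 to 12.1. The median log2 deviation of the tenth of nuclear genes lowest in GC content from their mean over libraries was -0.23, -0.02 and -0.14 in them, and -0.08 to 0.13 in the other passage libraries. The part of depth, RNA quality and base composition in the lower mitochondrial share was not tested. Summed over the nuclear subunits of complex I, the same libraries were the highest of their groups, at 3099.7, 2811 and 3344 CPM, where the others of these groups held 2635 and 2971 in P10 EMM, 2265 and 2306 in P10 2i/LIF and 2640.3 and 2789 in P20 2i/LIF. Beside several results, values without 1 of these libraries are given, an alternative partly chosen after seeing the data.

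**Figure D3:**
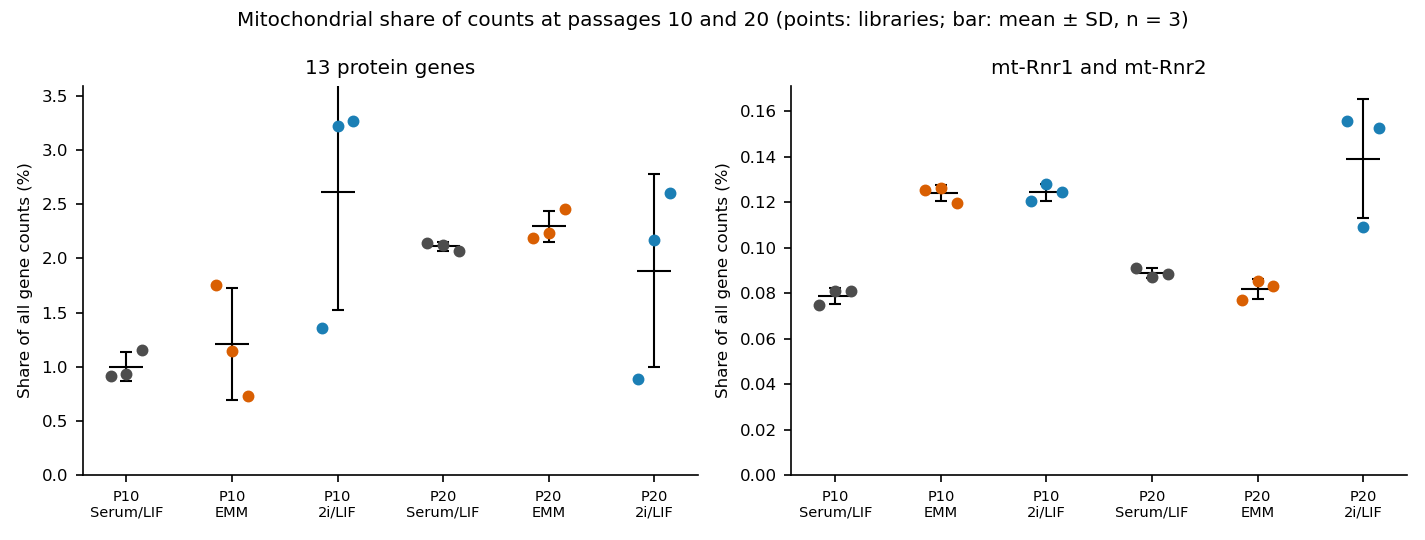
Points are the percent of all gene counts from the 13 mitochondrial protein genes (left) and from mt-Rnr1 and mt-Rnr2 (right) in each passage library, 3 per group, with the mean and SD as bars, both axes starting at 0. The protein share lies from 0.911 to 1.15% in P10 Serum/LIF and from 1.35 to 3.26% in P10 2i/LIF, with 1 P10 EMM and 1 P20 2i/LIF library below both at 0.728 and 0.887%, while the rRNA share of the P10 EMM and P10 2i/LIF libraries lies above all Serum/LIF libraries.

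In EMM against Serum/LIF, no protein gene was called at either passage. At P10, 0 of 13 passed (1 at an unadjusted p under 0.05, and 0 called by DESeq2), against 18.7% of all genes higher and 18.7% lower. The 13 log2 fold changes were all positive, from 0.20 to 1.03 with a median of 0.37, where all genes had a median of 0.01. The median of the 13 was 0.12 without EMM replicate 1 and 0.62 without EMM replicate 3. At P20, 0 of 13 passed (2 at an unadjusted p under 0.05, and 0 by DESeq2), against 13.6% higher and 12.5% lower, with 11 of 13 positive and a median of 0.13. Without a filter on low counts, 6 were called at P10 and 5 at P20, and fitting only the 2 groups compared called 1 and 6. The share at P20 nonetheless did not overlap between the groups, at 2.11 ± 0.0401% in Serum/LIF and 2.29 ± 0.146% in EMM (SD, n = 3), with an exact permutation p of 0.1, the smallest possible.

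The gene values show the spread behind these counts. At P10 mt-Co1 stood at 3658, 4092 and 4605 CPM in Serum/LIF and 7246, 4862 and 3504 in EMM, and at P20 at 7883, 7703 and 7678 and 8769.7, 8997 and 9411. EMM replicate 3 lay below all Serum/LIF libraries at P10, while all EMM libraries lay above them at P20. mt-Cytb, which shares no window with an annotated nuclear transcript, stood at 741, 762 and 932 CPM in P10 Serum/LIF and 1394, 879 and 552 in P10 EMM, and at 1952, 1914 and 1906 and 1985, 2012 and 2064 at P20. mt-Nd5 stood at 324, 360.0 and 432 CPM in P10 Serum/LIF and 956, 581 and 503 in P10 EMM, and at 868, 925 and 886 and 1435, 1457 and 1545 at P20. Its groups did not overlap at either passage, with log2 fold changes of 0.87 ± 0.30 (adjusted p = 0.0223) at P10 and 0.73 ± 0.30 (adjusted p = 0.0622) at P20.

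In 2i/LIF against Serum/LIF, 9 of 13 protein genes were called higher at P10 and none lower, against 26.4% of all genes higher and 25.6% lower. The median log2 fold change was 1.53 (range 0.18 to 2.47), where all genes had a median of 0.02. The complex I genes among the 9 were mt-Nd2 (log2 1.77 ± 0.42, adjusted p = 0.0013), mt-Nd3 (1.88), mt-Nd4l (2.47), mt-Nd4 (2.42) and mt-Nd5 (1.96 ± 0.31, adjusted p = 2.4e-05). The others were mt-Co1 (log2 1.46 ± 0.31, adjusted p = 0.000549), mt-Co2 (0.84), mt-Atp8 (1.20) and mt-Cytb (1.77 ± 0.40, adjusted p = 0.000838). mt-Nd1, mt-Atp6, mt-Co3 and mt-Nd6 did not pass, at log2 1.00, 1.53, 1.09 and 0.18. The copy of mt-Nd4 took 37.4 to 41.9% of the reads given to both in P10 Serum/LIF and 41.0, 1.2 and 2.9% in P10 2i/LIF, and with the counts of the copies added the log2 fold change of mt-Nd4 was 1.80. For mt-Nd3 the copy took 75.9, 79.6 and 93.0% in P10 Serum/LIF and 82.7, 71.7 and 80.3% in P10 2i/LIF. For mt-Nd4l it took 37.7, 47.5 and 86.9% and 65.7, 35.8 and 40.4%. The fold changes of these genes are uncertain for the same reason. The calls of mt-Co2 and mt-Nd3 were each lost on leaving out any 1 of 4 libraries, including 2i/LIF replicates 2 and 3. Of the feeder fibroblast markers tested, 4 of 4 were lower in P10 2i/LIF than in P10 Serum/LIF, and of those of mesoderm and neural cells 3 of 5, the latter list summing to 43.8 to 59.2 CPM in 2i/LIF and 27.7 to 57.5 in Serum/LIF, and their part was not tested.

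In CPM, mt-Co1 stood at 6262, 13746 and 13918 in P10 2i/LIF, mt-Cytb at 1305, 3377 and 3626 and mt-Nd5 at 679.9, 1843 and 1829.5. All 3 libraries lay above all P10 Serum/LIF libraries for these genes, with replicate 1 at about 2 to 3 times less than the other 2. At P20 the same genes stood at 3443, 7996 and 9305, 674, 2039 and 2635 and 764, 1346 and 1542. Replicate 1 then lay below all P20 Serum/LIF libraries, and replicates 2 and 3 above them. No protein gene was called in 2i/LIF against Serum/LIF at P20 (0 at an unadjusted p under 0.05, and 0 by DESeq2), with a median log2 fold change of 0.03, against 21.0% of all genes higher and 23.2% lower. That median was 0.37 without 2i/LIF replicate 1 and -0.33 without 2i/LIF replicate 3. Without replicate 1 of both 2i/LIF groups, 1 was called at P20.

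In EMM against 2i/LIF, 5 of 13 protein genes were called lower at P10 and none higher, against 22.9% of all genes higher and 22.2% lower, with a median log2 fold change of -1.03. They were mt-Co1 (log2 -1.12 ± 0.31, adjusted p = 0.00501), mt-Atp8 (-0.85 ± 0.26, adjusted p = 0.00988), mt-Nd4l (-1.85 ± 0.50, adjusted p = 0.00407), mt-Nd5 (-1.09 ± 0.30, adjusted p = 0.00485) and mt-Cytb (-1.55 ± 0.40, adjusted p = 0.00271). The count rested on single libraries: it was 8 without 2i/LIF replicate 1, 0 without 2i/LIF replicate 2 or 3 or EMM replicate 2, and 1 without EMM replicate 3. Without replicate 1 of both 2i/LIF groups it was 11. Between the same P10 groups, markers of mesoderm and neural cells summed to 9.06 to 12.8 CPM in EMM and 43.8 to 59.2 in 2i/LIF (2 of 5 called higher in EMM and 1 lower), those of trophectoderm to 8.07 to 12.4 and 23.5 to 26.9 CPM (0 of 4 higher and 1 lower), and those of feeder fibroblasts to 18.4 to 23.3 and 2.89 to 3.71 CPM (1 of 4 higher and 1 lower). Of the pluripotency markers, 4 of 7 were called higher and 1 lower, and the part of these markers in the result was not tested. At P20, 1 of 13 was called lower, mt-Nd6 (log2 -1.25 ± 0.30, adjusted p = 0.00171), against 25.7% higher and 22.9% lower among all genes, with a median over the 13 genes of 0.22. This median had no steady sign, at -0.16 without 2i/LIF replicate 1, 0.57 without 2i/LIF replicate 3 and 0.06 with offsets for GC content. mt-Nd6 stood at 19.4, 20.8 and 18.2 CPM in P20 EMM and 82.8, 28.8 and 32.0 in P20 2i/LIF, and without 2i/LIF replicate 1 its log2 fold change was -0.65 and no gene was called.

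**Figure D4:**
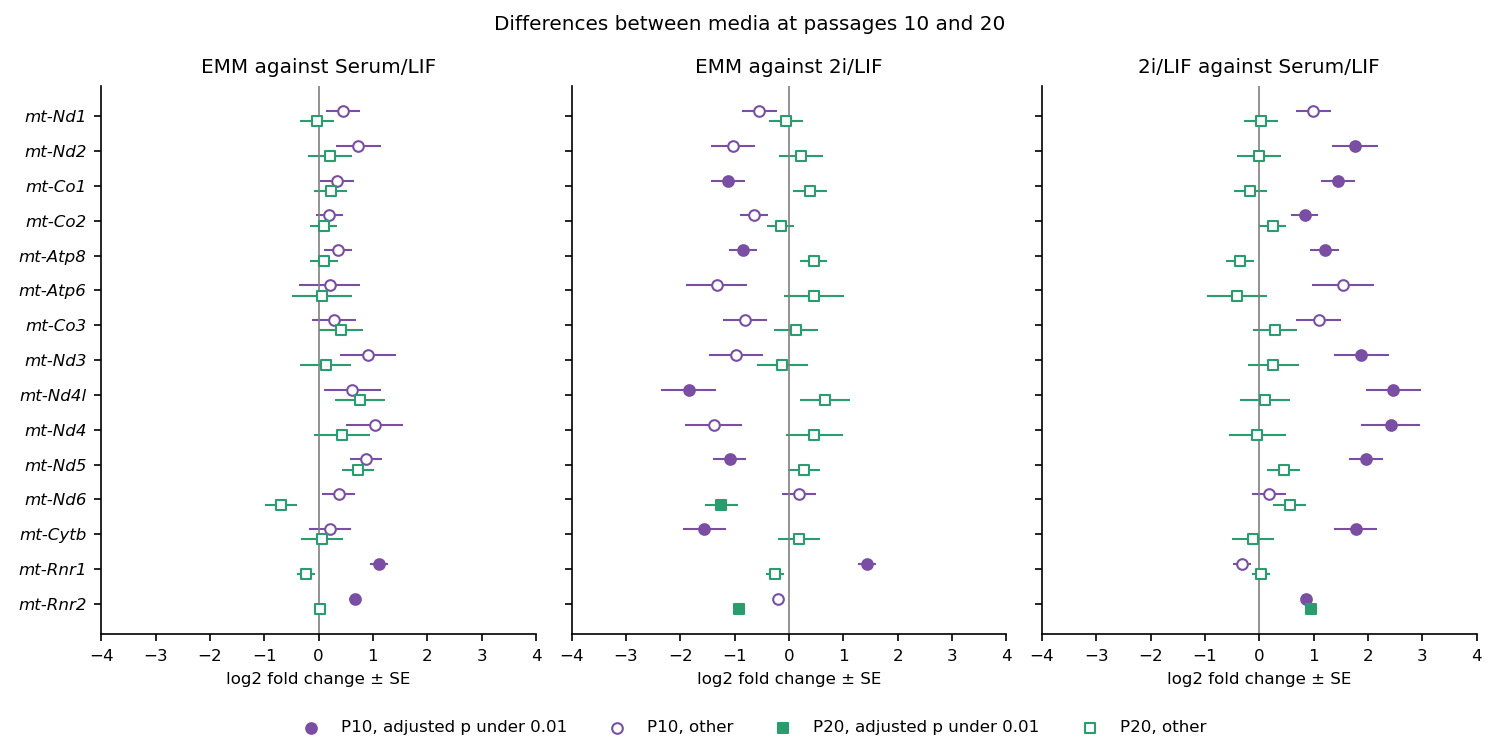
Points are edgeR log2 fold changes with their SE for the 13 protein and 2 rRNA genes in the 3 comparisons of media, at P10 (circles) and P20 (squares), filled where the adjusted p is under 0.01. The 9 filled protein genes of 2i/LIF against Serum/LIF at P10 lie between 0.84 and 2.47, and at P20 the fold changes of the 13 genes run from -0.40 to 0.56, all open.

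From P10 to P20, mt-Nd4l and mt-Nd5 were called higher in Serum/LIF and in EMM, and no protein gene was called in 2i/LIF. In Serum/LIF, the share went from 1.00 ± 0.133% to 2.11 ± 0.0401% (SD, n = 3) without overlap (exact permutation p = 0.1, the smallest possible). All 13 log2 fold changes were positive, with a median of 1.25, and 2 were called higher, mt-Nd4l (2.25 ± 0.50, adjusted p = 0.00627) and mt-Nd5 (1.26 ± 0.30, adjusted p = 0.00966), against 3.16% of all genes higher and 2.85% lower. At an unadjusted p under 0.05 there were 10, leaving out any 1 of the 6 libraries left 0, and fitting only these 2 groups called 11. Markers of primitive endoderm summed to 3.86 to 6.42 CPM at P10 and 6.93 to 9.78 at P20 in Serum/LIF, with 1 of 5 called higher, and those of feeder fibroblasts to 141 to 170 and 228 to 454 CPM, with 1 of 4 called higher and a median log2 fold change of 0.94. In EMM, the share went from 1.21 ± 0.516% to 2.29 ± 0.146% without overlap (exact permutation p = 0.1), and the same 2 genes were called higher, mt-Nd4l (2.39 ± 0.50, adjusted p = 0.00109) and mt-Nd5 (1.12 ± 0.30, adjusted p = 0.00701), with a median of 0.84, against 13.3% higher and 11.9% lower. In EMM, markers of mesoderm and neural cells summed to 9.06 to 12.8 CPM at P10 and 19.9 to 23.2 at P20, with 3 of 5 called higher, and those of primitive endoderm to 5.89 to 6.17 and 8.05 to 13.3 CPM, with 1 of 5 higher. Those of pluripotency went from 5348 to 7395 CPM at P10 to 4101 to 4221 at P20. The feeder fibroblast sum went from 18.4 to 23.3 to 9.72 to 12.9 CPM, and trophectoderm overlapped (8.07 to 12.4 and 10.3 to 10.8 CPM). The part of these markers in the results was not tested. In EMM, only 1 gene was called without P10 EMM replicate 2 or 3 or any 1 of the P20 EMM libraries. The mt-Nd4l reads are shared with an identical nuclear copy, and its call in both media was lost when the counts of the copies were added to their genes (log2 1.58 in Serum/LIF and 1.37 in EMM), an alternative chosen after seeing the data. In 2i/LIF, no protein gene was called (3 at an unadjusted p under 0.05, and 0 by DESeq2), with 12 of 13 fold changes negative and a median of -0.25 (-0.59 without P10 replicate 1 and 0.02 without P20 replicate 1), against 13.1% higher and 15.2% lower. The count was 1, lower, without P10 replicate 1 or without P20 replicate 3.

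The difference between media was then compared between passages, as the P20 log2 fold change minus that of P10. For EMM against Serum/LIF, 0 of 13 protein genes passed (1 at an unadjusted p under 0.05, and 0 by DESeq2), with a median of -0.15 (0.06 without P10 EMM replicate 1 and -0.47 without P10 EMM replicate 3), against 8.28% of all genes higher and 6.43% lower. For EMM against 2i/LIF, 3 passed as higher, mt-Co1 (1.51 ± 0.44, adjusted p = 0.00895), mt-Atp8 (1.30 ± 0.37, adjusted p = 0.00755) and mt-Nd4l (2.51 ± 0.67, adjusted p = 0.00551), with a median of 1.30, against 16.9% higher and 15.4% lower. For 2i/LIF against Serum/LIF, 2 passed as lower, mt-Co1 (-1.62 ± 0.44, adjusted p = 0.0084) and mt-Atp8 (-1.56 ± 0.37, adjusted p = 0.00357), with a median of -1.62, against 9.16% higher and 10.9% lower. These comparisons share libraries. Leaving out 1 library gave 0 to 7 calls in both, with 7 in each without P10 2i/LIF replicate 1 and 0 in each without P10 2i/LIF replicate 2 or 3. The first count was also 0 without P10 EMM replicate 2, P20 2i/LIF replicate 1 or P20 EMM replicate 1 or 3, 1 without P10 EMM replicate 3, 5 without P10 EMM replicate 1 and 6 without P20 2i/LIF replicate 3. The second was also 0 without P10 Serum/LIF replicate 1 or 2, 4 without P20 2i/LIF replicate 3, and 1 without P10 Serum/LIF replicate 3, P20 2i/LIF replicate 1 or 2, or any 1 of the P20 Serum/LIF libraries.

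In the passage experiment, mt-Rnr1 and mt-Rnr2 were called in several comparisons. mt-Rnr1 stood at 139, 129 and 149.8 CPM in P10 Serum/LIF, 305, 306 and 294 in P10 EMM and 106, 116 and 112 in P10 2i/LIF. It was thus 2 to 3 times higher in EMM than in either other medium, with log2 fold changes of 1.12 ± 0.17 (adjusted p = 2.37e-05) against Serum/LIF and 1.44 ± 0.17 (adjusted p = 1.11e-06) against 2i/LIF. In the same P10 libraries, feeder fibroblast markers summed to 18.4 to 23.3 CPM in EMM and 141 to 170 in Serum/LIF, with 1 of 4 called higher in EMM and 3 lower. Markers of mesoderm and neural cells were called higher for 1 of 5 and lower for 3, those of trophectoderm lower for 2 of 4, and those of pluripotency higher for 4 of 7, and their part was not tested. At P20 it stood at 216, 194 and 199 CPM in Serum/LIF, 162, 178 and 179 in EMM and 297, 137 and 193 in 2i/LIF, and it passed in no comparison of media. From P10 to P20, mt-Rnr1 fell in EMM (log2 -0.80 ± 0.17, adjusted p = 0.00105) and rose in 2i/LIF (log2 0.90 ± 0.17, adjusted p = 0.000382), the latter being 0.56 without P20 2i/LIF replicate 1, the library that held 297 CPM. The EMM difference itself changed between passages, by log2 -1.35 ± 0.24 (adjusted p = 0.000368) against Serum/LIF and -1.70 ± 0.24 (adjusted p = 2.08e-05) against 2i/LIF.

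mt-Rnr2 followed another order. It stood at 603, 655 and 648 CPM in P10 Serum/LIF, 996, 1027 and 996 in P10 EMM and 1110.4, 1178 and 1163 in P10 2i/LIF, and both latter groups lay above Serum/LIF without overlap (log2 0.66 ± 0.10, adjusted p = 2.09e-05 for EMM and 0.86 ± 0.10, adjusted p = 6.03e-07 for 2i/LIF). At P20 it stood at 649.5, 614 and 627 CPM in Serum/LIF, 604, 674 and 653 in EMM and 1329.8, 951 and 1358 in 2i/LIF. It remained higher in 2i/LIF than in Serum/LIF (log2 0.94 ± 0.10, adjusted p = 2.34e-07) and was lower in EMM than in 2i/LIF (log2 -0.91 ± 0.10, adjusted p = 2.79e-07), while EMM and Serum/LIF differed by log2 0.03 ± 0.10 (adjusted p = 0.832). In EMM it fell from P10 to P20 (log2 -0.64 ± 0.10, adjusted p = 6.93e-05). Its EMM difference changed between passages by log2 -0.63 ± 0.14 (adjusted p = 0.00256) against Serum/LIF and -0.72 ± 0.14 (adjusted p = 0.000433) against 2i/LIF. At P20, feeder fibroblast markers summed to 228 to 454 CPM in Serum/LIF, 9.72 to 12.9 in EMM and 4.82 to 5.82 in 2i/LIF. Mesoderm and neural markers summed to 29.9 to 34.7, 19.9 to 23.2 and 12.2 to 15.5 CPM. Those of primitive endoderm summed to 6.93 to 9.78, 8.05 to 13.3 and 4.07 to 4.30 CPM. The part of these markers was not tested. Beside these results, Rmrp, another RNA without a poly(A) tail, was called higher in EMM than in Serum/LIF at P10, by log2 2.15 ± 0.62 (adjusted p = 0.0075), and Rn7sk was not, at 0.80 ± 0.42 (adjusted p = 0.129). Of 5 such RNAs tested, 1 was called in EMM against Serum/LIF at P10 and 0 at P20, and of 40 histone genes 1 was higher at P10 and 3 lower at P20. In EMM against 2i/LIF at P10, 10 histone genes were higher and none lower (median 1.41), and at P20 none passed. In 2i/LIF against Serum/LIF, 0 were higher and 8 lower at P10 (median -1.51), and 4 were lower at P20, when Rn7sk was higher by 1.53 ± 0.45 (adjusted p = 0.00719). From P10 to P20 in EMM, 1 of the 5 RNAs and 2 histone genes were lower. Rn7sk was lower in the change of EMM against 2i/LIF between passages, by log2 -2.11 ± 0.61 (adjusted p = 0.0089), with 1 histone gene higher and 4 lower. Their part in the rRNA results was not tested.

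Ratios of mitochondrial counts within a library need no scaling between libraries. Of 4 such ratios computed, 2 were chosen for description after their values were seen, and no test is given for them. In the other 2, rRNA counts per 100 protein gene counts and mt-Nd6 per 100 mt-Cytb counts, P10 EMM overlapped P10 Serum/LIF. The first lay below Serum/LIF without overlap at 3 h (mean 5.43 against 10.2), 24 h (5.21 against 10.2) and P20 (3.08 against 3.63), and overlapped at 9 h. Serum/LIF replicate 1 of the time course held 17.0. The second overlapped at all 3 EMM times and lay below Serum/LIF without overlap at P20 (0.964 against 1.63). In P10 EMM it lay above P10 2i/LIF (4.07 against 1.14). The count of mt-Rnr2 per count of mt-Rnr1 was 4.34, 5.10 and 4.32 in P10 Serum/LIF, 3.26, 3.36 and 3.39 in P10 EMM and 10.5, 10.1 and 10.4 in P10 2i/LIF. The 3 media did not overlap, and 2i/LIF stood at 10.3 ± 0.185 (SD, n = 3), its replicate 1 included. At P20 the ratio was 3.01, 3.16 and 3.15 in Serum/LIF, 3.73, 3.78 and 3.64 in EMM and 4.48, 6.92 and 7.05 in 2i/LIF, again without overlap. In the time course it was 2.75, 3.37 and 3.93 in Serum/LIF, 3.59, 3.79 and 3.86 at 3 h, 4.14, 4.25 and 4.93 at 9 h and 4.16, 4.34 and 4.51 at 24 h, and the 9 h and 24 h libraries lay above all Serum/LIF libraries. EMM thus lay above Serum/LIF at 9 h, 24 h and P20 and below it at P10, while the 3 h libraries overlapped Serum/LIF.

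The count of mt-Nd5 per 100 counts of mt-Cytb separated EMM from Serum/LIF in the same direction at both passages. It was 43.7, 47.3 and 46.4 in P10 Serum/LIF, 68.6, 66.1 and 91.1 in P10 EMM and 52.1, 54.6 and 50.5 in P10 2i/LIF. At P20 it was 44.5, 48.3 and 46.5 in Serum/LIF, 72.3, 72.4 and 74.9 in EMM and 113, 66.0 and 58.5 in 2i/LIF. The Serum/LIF libraries of both passages lay between 43.7 and 48.3, and every EMM and 2i/LIF library lay above them. In the time course the ratio was 57.5, 56.5 and 57.2 in Serum/LIF, 54.9, 55.9 and 56.2 at 3 h, 57.1, 56.3 and 53.9 at 9 h and 63.6, 60.7 and 62.2 at 24 h, where 24 h lay above Serum/LIF and 3 h below it. The highest values, 113 and 91.1, belonged to P20 2i/LIF replicate 1 and P10 EMM replicate 3, 2 of the 3 smallest libraries.

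**Figure D5:**
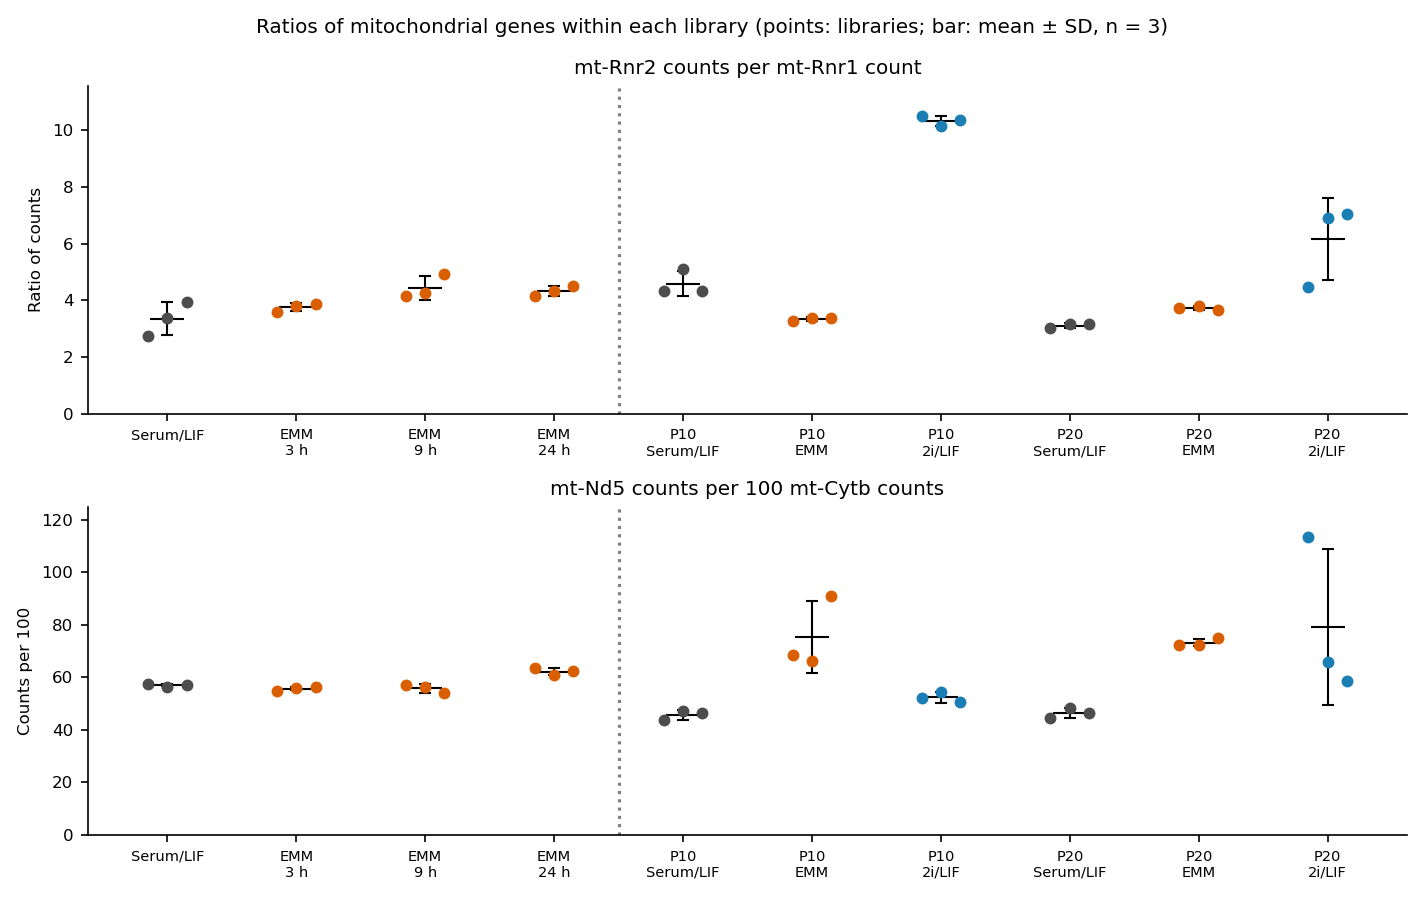
Points are the counts of mt-Rnr2 per count of mt-Rnr1 (upper) and of mt-Nd5 per 100 counts of mt-Cytb (lower) in each library, 3 per group, with the mean and SD as bars, axes starting at 0 and a dotted line between the time course and the passage experiment. P10 2i/LIF stands at 10.1 to 10.5 in the upper panel, and all EMM libraries of both passages lie at 66.1 or more in the lower panel, above the Serum/LIF libraries.

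The make-up of the mitochondrial mRNA pool was led by mt-Co1 throughout. It held 39.0 to 41.4% of the counts of the 7 protein genes tested in the time course as group means, and 32.3 to 36.3% of the counts of all 13 with their copies in the passage experiment. The minus-strand gene mt-Nd6 held 2.58 to 3.04% in the time course and 0.0735 to 0.329% in the passage experiment, whose library kit keeps the strand. Per kb of gene, mean levels in P10 Serum/LIF were 2666 CPM per kb for mt-Co1, 709 for mt-Cytb, 204 for mt-Nd5 and 46.4 for mt-Nd6. In the Serum/LIF libraries of the time course they were 4099, 2522, 903 and 875 CPM per kb.

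The nuclear genes that serve the mitochondrial genome were also counted in the time course, where 16.3, 18.5 and 21.8% of all genes were called higher and 18.2, 19.7 and 22.2% lower at 3, 9 and 24 h. Of 22 genes for transcription, replication and the nucleoid, 0, 0 and 0 were called higher and 3, 6 and 8 lower at 3, 9 and 24 h, and the list median at 24 h was -0.13 on the log2 scale. The count of lower genes at 3 h, 3 of 22, lies below the share over all genes. At 24 h Tfam, which packages and starts transcription of the genome, fell by 0.20 ± 0.04 (adjusted p = 0.00034) and Polrmt, its RNA polymerase, fell by 0.18 ± 0.04 (adjusted p = 0.00215). The largest fall on the list was that of Top1mt, the mitochondrial topoisomerase, at -0.78 ± 0.08 (adjusted p = 9.43e-07). The initiation factor Tfb2m was at -0.12 (adjusted p = 0.294). Of 27 genes for RNA processing, stability and decay tested, 2 were called higher and 6 lower at 24 h, with a median of -0.05, led by Fastkd2 (0.29 ± 0.04, adjusted p = 1.97e-05), which takes part in RNA granules, and Ptcd3 (-0.37 ± 0.04, adjusted p = 3.95e-07), a protein of the small ribosomal subunit. Lrpprc, which stabilizes mitochondrial mRNAs, was at 0.13 (adjusted p = 0.0106), and its partner Slirp did not pass the filter on low counts.

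The nuclear subunits of the same complexes were called in both directions at 24 h, against 21.8% of all genes higher and 22.2% lower. For complex I, 9 of 38 were higher and 2 lower (median log2 fold change 0.12), from Ndufb2 (0.61 ± 0.13, adjusted p = 0.000824) to Ndufc1 (-0.21 ± 0.05, adjusted p = 0.00155). For complex III, 3 of 9 were higher and none lower (median 0.14), with Uqcrh at 0.22 ± 0.05 (adjusted p = 0.000916). For complex IV, 7 of 15 were higher and 2 lower (median 0.26), from Cox7a2l (0.66 ± 0.04, adjusted p = 1.35e-08) to Cox4i2 (-2.37 ± 0.47, adjusted p = 0.000516). For complex V, 3 of 17 were higher and none lower (median 0.09), with Atp5k at 0.38 ± 0.07 (adjusted p = 0.000173). The counts higher for complexes I and V lie near the share over all genes, and those lower lie below it for all 4. At 3 h, the 4 complexes had 3 and 2, 1 and 0, 0 and 0, and 1 and 1 subunits higher and lower, below the shares of 16.3 and 18.2% over all genes.

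In the passage experiment, EMM was compared with Serum/LIF against a background of 18.7% of all genes higher and 18.7% lower at P10, and of 13.6 and 12.5% at P20. At P10, 0 of the 22 transcription and replication genes were higher and 4 lower, led by Top1mt (-0.83 ± 0.15, adjusted p = 0.000138), and 8 of 28 RNA processing genes were higher and 1 lower, from Fastkd2 (0.68 ± 0.08, adjusted p = 8.76e-07) to Grsf1 (-0.38 ± 0.11, adjusted p = 0.00759). Lrpprc rose at P10 (0.34 ± 0.09, adjusted p = 0.00607) and at P20 (0.54 ± 0.09, adjusted p = 0.000212), when 4 of 28 RNA processing genes were higher, led by Fastkd3 (0.56 ± 0.08, adjusted p = 5.42e-05). Slirp was at -0.01 and -0.39 (adjusted p = 0.965 and 0.0212), and no gene of the transcription list passed at P20. Tfam, Polrmt and Tfb2m were at 0.04, 0.21 and 0.09 at P10 (adjusted p = 0.771, 0.131 and 0.478) and at -0.07, -0.27 and -0.21 at P20 (adjusted p = 0.657, 0.065 and 0.105). Of the nuclear subunits of complexes I, III, IV and V, 6, 0, 9 and 1 were higher at P10 and none lower, with the largest rises in Ndufb9 (1.08), Cox6b2 (1.15) and Atp5a1 (0.36). Among the 4 complexes, only the count for complex IV lay above the share over all genes. Without P10 EMM replicate 3 the counts were 4, 0, 8 and 1 for the subunits, 5 and 0 for the processing list and 0 and 3 for the transcription list, where all genes then had 16.7% higher and 15.4% lower. At P20, 1, 0, 1 and 0 were higher and 1, 0, 0 and 1 lower, these being Ndufb9 (0.59), Cox7a2l (0.51), Ndufb10 (-0.54) and Atp5g1 (-0.36).

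In EMM against 2i/LIF, the background was 22.9% of all genes higher and 22.2% lower at P10, and 25.7 and 22.9% at P20. Grsf1, an RNA-binding protein of mitochondrial RNA granules, was the lowest of the processing list at both passages, at log2 -2.13 ± 0.11 (adjusted p = 2.72e-11) at P10 and -1.60 ± 0.11 (adjusted p = 6.72e-10) at P20. At P10, 8 of 28 processing genes were higher, led by Trmt61b (1.57), and 7 lower, and 7 of 22 transcription genes were higher and 3 lower, from Rnaseh1 (0.82) to Tk2 (-0.68), with Tfam at 0.62 ± 0.11 (adjusted p = 8.56e-05), Tfb2m at -0.41 (adjusted p = 0.00256), Lrpprc at 0.52 (adjusted p = 0.000134), and Polrmt and Slirp at 0.08 and 0.11 (adjusted p = 0.591 and 0.523). At P20, 6 processing genes were higher, led by Mto1 (0.61), and 10 lower, and 4 transcription genes were higher and 5 lower, from Mterf1a (0.75) to Rrm2b (-1.11), with Tfb2m at -0.49 (adjusted p = 0.000388) and Lrpprc at 0.31 (adjusted p = 0.00931). Tfam, Polrmt and Slirp did not pass at P20, at -0.07, -0.05 and -0.37 (adjusted p = 0.575, 0.742 and 0.018). Of the subunits of complexes I, III, IV and V, 12, 2, 3 and 1 were higher and 2, 1, 2 and 0 lower at P10. The largest rises were those of Ndufa4l2 (1.93), Uqcrq (0.83), Cox4i1 (0.68) and Atp5a1 (0.44), and the largest falls those of Ndufb4 (-1.26), Uqcrc2 (-0.55) and Cox7a1 (-1.53). Ndufa4l2 stands on the complex I list by its symbol alone. At P20, 2, 0, 0 and 0 were higher and 17, 6, 5 and 6 lower. The largest rise was that of Ndufa4l2 (2.43), again listed by symbol alone, and the largest falls were those of Ndufb7 (-1.21), Uqcr10 (-1.07), Cox7b2 (-2.96) and Atp5k (-1.20). P20 2i/LIF replicate 1 was the highest library of this comparison in these subunits, and without it 2, 0, 0 and 0 were higher and 13, 6, 6 and 4 lower, where all genes then had 23.7% higher and 21.5% lower. Without P10 EMM replicate 3, the P10 counts were 7, 1, 1 and 1 higher and 1, 1, 2 and 0 lower (20.3 and 19.0% of all genes), and without P10 2i/LIF replicate 1 they were 15, 3, 4 and 9 higher and 1, 1, 2 and 0 lower (22.3 and 22.3%).

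From P10 to P20 in EMM, nuclear subunits were called lower, against 13.3% of all genes higher and 11.9% lower. The counts were 1 of 38 higher and 10 lower for complex I (median log2 fold change -0.35), 0 of 9 and 4 for complex III (-0.40), 0 of 15 and 7 for complex IV (-0.42), and 1 of 17 and 7 for complex V (-0.44), while 12 of the 13 mitochondrial protein genes had positive fold changes. P10 EMM replicate 3 was the highest P10 EMM library in these subunits and the lowest in the mitochondrial share. Without it the subunits lower were 5, 2, 5 and 1, with medians of -0.29, -0.34, -0.42 and -0.38, against 8.48% of all genes higher and 8.49% lower, and the mitochondrial median was 0.57. Tfam fell by 0.44 (adjusted p = 0.00352) and Polrmt fell by 0.41 (adjusted p = 0.00752) over the same passages, and no gene of their list was called without that library. In Serum/LIF, where all 13 mitochondrial fold changes were positive, no nuclear subunit was called in either direction, against 3.16% of all genes higher and 2.85% lower.

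The difference of EMM from 2i/LIF changed between passages for some nuclear subunits, with 1, 0, 0 and 0 higher and 17, 6, 4 and 8 lower for complexes I, III, IV and V, against 16.9% of all genes higher and 15.4% lower. Without P20 2i/LIF replicate 1 there were 1, 0, 0 and 0 higher and 13, 5, 4 and 3 lower (14.8 and 14.4% of all genes). In 2i/LIF against Serum/LIF, 6, 1, 7 and 0 subunits were higher and 1, 1, 0 and 0 lower at P10, against 26.4% of all genes higher and 25.6% lower, so that the counts for complexes I, III and V lay below the share over all genes. At P20, 17, 4, 9 and 6 were higher and 1, 0, 0 and 1 lower, against 21.0 and 23.2%, and without 2i/LIF replicate 1 they were 12, 3, 9 and 6 higher and 1, 0, 1 and 1 lower (19.9 and 21.6% of all genes). No mitochondrial protein gene was called in that comparison.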

How the data were processed

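RNA-seq of E14tg2a cells was given as 2 gene tables that were fitted separately. The time-course table holds counts of reads per gene that the authors deposited as whole numbers, for which the submitters' notes name STAR, featureCounts, DESeq2 and mm10. The passage table holds estimated counts, also deposited by the authors, for which the notes name STAR, Salmon, DESeq2 and mm10, and 9.982% of values were not whole and were rounded. The paper's methods name HTSeq, and versions were not given in the sources used here. Gene symbols, coordinates and transcript sequences came from GENCODE M21 (mm10). Featured sequences were copied from its transcripts, and sharing with nuclear transcripts was scored in 60-base windows.

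Genes were filtered with filterByExpr, scaled by TMM and tested with edgeR 4.0.16 (R 4.3.3, limma 3.58.1), using glmQLFit and glmQLFTest in 1 model of 4 groups for the 12 time-course libraries and 1 model of 6 groups for the 18 passage libraries, with Benjamini-Hochberg adjustment over all genes. The study's threshold also asked for a log2 fold change above 1. Shares were tested by exact 2-sided permutation. DESeq2 1.42.0, other scalings and filters, single libraries left out and replicate blocks were alternatives. The edgeR and DESeq2 steps were tested on simulated data.

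The members and lists were chosen with earlier results of these data known. All protein and rRNA genes, the tRNA genes that passed the filter and the chromosome 1 copies were named. Of the lists for transcription, replication and the nucleoid, for RNA processing (28 of 29 symbols matched) and for nuclear subunits, Tfam, Polrmt, Tfb2m, Lrpprc, Slirp and, per list, the largest rise and fall past the threshold were named, at 24 h and for EMM against each other medium at P10 and P20. The nuclear subunits were taken by symbol alone, so a member of such a list need not be a subunit of that complex. Counts of reads are not independent molecules, since no molecular identifiers were stated.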

Additional observations from a re-analysis of the deposited data

Results flagged for a closer look

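The difference between EMM and the other media was not the same at both passages for the rRNAs, by the test of the difference itself (edgeR's quasi-likelihood test, P20 minus P10). Against Serum/LIF it was -1.35 for mt-Rnr1 (adjusted p = 0.000368) and -0.63 for mt-Rnr2 (adjusted p = 0.00256) on the log2 scale. Against 2i/LIF it was -1.70 for mt-Rnr1 (adjusted p = 2.08e-05) and -0.72 for mt-Rnr2 (adjusted p = 0.000433). Among mRNAs, EMM against 2i/LIF differed between passages by 1.51 for mt-Co1, 1.30 for mt-Atp8 and 2.51 for mt-Nd4l, and 2i/LIF against Serum/LIF by -1.62 for mt-Co1 and -1.56 for mt-Atp8. The mRNA differences were not called without P10 2i/LIF replicate 2 or 3, and mt-Nd4l was not called once the counts of its nuclear copy were added (1.74, adjusted p = 0.0147).

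Counts assigned to nuclear copies in the time course lay outside the genes compared. Gm28438, the copy of mt-Nd3, had a median of 170.5 counts over the 12 libraries (110 to 214), while mt-Nd3 itself had at most 1. Their reference sequences differ at 1 base, and the base carried by the mitochondrial genome of these cells was not examined. Whether these reads came from the nuclear copy or from mt-Nd3 can therefore not be told. Gm10222, the copy of mt-Nd4l, had a median of 18 counts (10 to 23), where 3 counts were taken as the floor.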

How the results depend on the processing

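The number of mitochondrial protein genes called higher or lower was 6 for EMM at 3 h, 3 for EMM at 9 h, 4 for EMM at 24 h, 0 for 3 to 9 h, 0 for 9 to 24 h, 0 for P10 EMM against Serum/LIF, 0 for P20 EMM against Serum/LIF, 5 for P10 EMM against 2i/LIF, 1 for P20 EMM against 2i/LIF, 9 for P10 2i/LIF against Serum/LIF, 0 for P20 2i/LIF against Serum/LIF, 2 for EMM P20 against P10, 0 for 2i/LIF P20 against P10, 2 for Serum/LIF P20 against P10, 0 for EMM against Serum/LIF between passages, 3 for EMM against 2i/LIF between passages and 2 for 2i/LIF against Serum/LIF between passages. Of 340 recomputed counts over 17 comparisons, 234 stayed within 1.5 times of these and 106 did not, while of 55 called fold changes of single genes none changed sign in 951 recomputations, 140 of which lost the call. Fold changes that were not called did change sign, as that of mt-Rnr2 at 3 h did without Serum/LIF replicate 1 (0.07). Of 306 medians, 298 moved by less than the spread they were set against and 8 moved more. Of 166 differences in share, 165 did so, and the exception was the difference from P10 to P20 in Serum/LIF, at 1.28 percentage points with the chromosome 1 copies in the numerator against 1.11 without.

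Counts outside 1.5 times were as follows, and the cause was not tested unless the alternative itself uses fewer genes or libraries. Requiring a log2 fold change above 1 as well left 0 for EMM at 3 h, 0 for EMM at 9 h and 0 for EMM at 24 h. An adjusted p under 0.05 gave 2 for 3 to 9 h, 1 for 9 to 24 h, 1 for P10 EMM against Serum/LIF, 8 for P10 EMM against 2i/LIF, 7 for EMM P20 against P10, 8 for Serum/LIF P20 against P10, 7 for EMM against 2i/LIF between passages and 7 for 2i/LIF against Serum/LIF between passages. With no filter beyond a total count of 1, the counts were 7 for EMM at 9 h, 7 for EMM at 24 h, 6 for 3 to 9 h, 2 for 9 to 24 h, 6 for P10 EMM against Serum/LIF, 5 for P20 EMM against Serum/LIF, 12 for P10 EMM against 2i/LIF, 7 for P20 EMM against 2i/LIF, 5 for P20 2i/LIF against Serum/LIF, 13 for EMM P20 against P10, 6 for 2i/LIF P20 against P10, 12 for Serum/LIF P20 against P10, 4 for EMM against Serum/LIF between passages, 13 for EMM against 2i/LIF between passages and 12 for 2i/LIF against Serum/LIF between passages, and with at least 10 counts in every library 4 for 2i/LIF against Serum/LIF between passages. The Wald test of DESeq2 gave 1 for 3 to 9 h, 1 for 9 to 24 h, 4 for Serum/LIF P20 against P10, 5 for EMM against 2i/LIF between passages and 4 for 2i/LIF against Serum/LIF between passages. Fitting only the 2 groups compared gave 2 for 3 to 9 h, 1 for P10 EMM against Serum/LIF, 6 for P20 EMM against Serum/LIF, 1 for P10 EMM against 2i/LIF, 0 for P20 EMM against 2i/LIF, 7 for EMM P20 against P10 and 11 for Serum/LIF P20 against P10. The following alternatives were chosen after seeing the data. Per-library offsets for GC content gave 1 for EMM at 9 h. Adding the chromosome 1 copies to their genes gave 1 for EMM P20 against P10 and 4 for 2i/LIF against Serum/LIF between passages. Keeping only the 7 protein genes tested in both tables gave 3 for P10 EMM against 2i/LIF, 5 for P10 2i/LIF against Serum/LIF, 1 for EMM P20 against P10, 1 for Serum/LIF P20 against P10, 1 for EMM against 2i/LIF between passages and 1 for 2i/LIF against Serum/LIF between passages. Leaving out replicate 1 of both 2i/LIF groups gave 11 for P10 EMM against 2i/LIF, 1 for P20 2i/LIF against Serum/LIF, 7 for EMM against 2i/LIF between passages and 7 for 2i/LIF against Serum/LIF between passages. Leaving out 1 library at a time gave 2 to 5 for EMM at 9 h, 0 to 1 for 9 to 24 h, 0 to 8 for P10 EMM against 2i/LIF, 0 to 1 for P20 EMM against 2i/LIF, 1 to 3 for EMM P20 against P10, 0 to 1 for 2i/LIF P20 against P10, 0 to 0 for Serum/LIF P20 against P10, 0 to 7 for EMM against 2i/LIF between passages and 0 to 7 for 2i/LIF against Serum/LIF between passages.

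Replicate numbers gave no clear pairing of the libraries over all genes. Deviations from the group means correlated at a median r of 0.01 over 18 pairs with the same title number in the time course (5 over 0.1) and 0.00 over 45 pairs in the passage experiment (3 over 0.1), and at 0.02 over 15 pairs by the description numbers (5 over 0.1), which differ from the titles in EMM. Among pairs with different numbers, 5 of 36 by title and 5 of 39 by description were over 0.1 in the time course. In the passage experiment these were 7 of 90. A structure shared by replicates of the time course is therefore not excluded. With the title number as a replicate block, the counts were 6 for EMM at 9 h, 7 for EMM at 24 h, 2 for 3 to 9 h, 2 for 9 to 24 h, 2 for P10 EMM against 2i/LIF, 1 for EMM P20 against P10 and 0 for Serum/LIF P20 against P10. With the description number as a replicate block they were 7 for EMM at 9 h, 7 for EMM at 24 h, 2 for 3 to 9 h and 2 for 9 to 24 h. Genes called with either block and not without it included mt-Nd1, mt-Nd2 and mt-Nd4 at 9 h and 24 h, mt-Nd6 at 3 h, mt-Nd1 and mt-Nd2 as lower from 3 to 9 h and mt-Nd5 and mt-Nd6 as higher from 9 to 24 h. EMM replicate 1 had the highest and replicate 3 the lowest CPM summed over the protein genes at each time. In other comparisons the block kept the count within 1.5 times.

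The precision was limited by 3 libraries a group, by the spread of the P10 EMM and 2i/LIF libraries, and for the tRNAs by counts too low to test in 19 of 22 genes. Reads shared with nuclear copies could not be reassigned from counts.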
